A study of Homo sapiens with 12 samples.

Results

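The peaks described here are the dCas9 binding peaks that lay within 5 Mb of the end of a chromosome, called tip peaks below. They were taken from chromosomes 2, 3, 5, 7, 8, 9, 10, 11, 12, 14, 15, 16, 20, 21 and 22 of the human build hg19. A peak was a member when its start was below 5 Mb, or when its end lay within 5 Mb of the largest peak end seen on that chromosome in any of the 9 lists. The first kind forms the p tip of a chromosome and the second the q tip. Of 58042 peaks in all lists, 6804 (11.7%) were tip peaks, 27829 lay in the inner parts of the same 15 chromosomes, and 23409 lay on other chromosomes. Of 30 possible tips, 26 held at least 1 peak. The 4 without a peak were the p tips of chromosomes 14, 15, 21 and 22, where the first peak of any list started at 19.4, 20.5, 9.54 and 16.1 Mb.

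All groups were HEK 293T cells, an established human embryonic kidney line, transfected with dCas9 and 1 single guide RNA (sgRNA) and collected after 3 days. The groups differ in the guide: sgRNA1, sgRNA2 and sgRNA3 have 2 replicates each, and sgRNA4, sgRNA5 and sgRNA6 have 1 library each. An antibody to the HA tag pulled down the bound DNA, which was sequenced. The question is where each guide took dCas9. The control with dCas9 and no guide was not analysed here, so no value below is set against a background without a guide.

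Cas9 searches DNA for a short motif next to the target and then pairs its guide with the adjacent strand, starting from the bases nearest that motif. dCas9 carries changes that stop it from cutting but still binds DNA, including sites that match only the part of the guide called the seed. In human chromosomes the DNA close to the ends, inside the telomere repeats, tends to be rich in genes and in G and C. The short arms of chromosomes 14, 15, 21 and 22 carry repeated ribosomal RNA genes and are largely missing from this build.

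Peaks were denser in the tips than in the inner parts of the same chromosomes for every guide. sgRNA6 had 4350 tip peaks, or 33.5 per Mb, against 8.94 per Mb in the inner parts. sgRNA4 had 1630, or 12.5 per Mb against 3.51 per Mb. sgRNA5 had 656, or 5.05 per Mb against 2.32 per Mb. The density in the tips was thus 3.74, 3.57 and 2.18 times the inner density in these 3 lists. The other guides have far shorter lists. Replicate 2 of sgRNA1 had 92 tip peaks (0.708 against 0.347 per Mb), that of sgRNA2 had 40 (0.308 against 0.155 per Mb) and that of sgRNA3 had 24 (0.185 against 0.0992 per Mb). The replicate 1 lists held 3, 4 and 5 tip peaks for sgRNA1, sgRNA2 and sgRNA3. In sgRNA1 replicate 1 the density in the tips was 0.905 times the inner one, the only list of the 9 with a ratio below 1.

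Averaged within guides and then over guides, the log2 ratio of tip to inner density was 1.32 ± 0.51 (SD, n = 6), or 2.50-fold, with 0.5 added to each count. It was above 0 in 6 of 6 guides: 0.55 for sgRNA1, 1.07 for sgRNA2, 1.45 for sgRNA3, 1.84 for sgRNA4, 1.12 for sgRNA5 and 1.90 for sgRNA6. The two-sided exact sign-flip permutation test over 6 guides gave p = 0.0313, the smallest that its 64 patterns allow, and an adjusted p (Benjamini-Hochberg over 5 tests) of 0.0781. The inner length includes every stretch without a peak, among them those at the start of chromosomes 14, 15, 21 and 22. With length counted only over 1 Mb bins that held a peak, the mean log2 ratio was 1.06, above 0 in 6 of 6 guides.

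**Figure D1:**
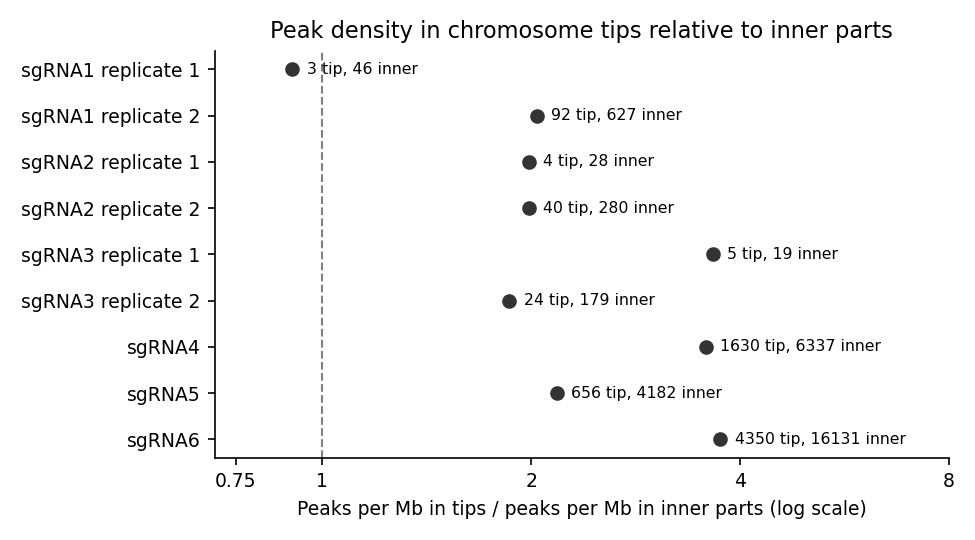
Ratio of peaks per Mb in the tips to peaks per Mb in the inner parts of the same 15 chromosomes, on a log axis, with 1 point per list, its numbers of peaks beside it and a dashed line at a ratio of 1. The ratio is above 1 in 8 of 9 lists, and 0.905 in sgRNA1 replicate 1.

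The single chromosomes mostly showed the same direction. For sgRNA6 the tips were denser than the inner part on 15 of 15 chromosomes, with a median ratio of 3.12. For sgRNA4 they were denser on 14 of 15, with a median ratio of 2.97, and for sgRNA5 on 12 of 15, with a median ratio of 1.79. The replicate 2 lists gave 12, 10 and 9 of 15 for sgRNA1, sgRNA2 and sgRNA3. Chromosome 21 had the largest ratio in all 3 long lists, at 10.5 for sgRNA6, 10.2 for sgRNA4 and 5.58 for sgRNA5; it has only a q tip and its inner length includes the stretch before its first peak at 9.54 Mb. Chromosome 3 had the smallest, at 1.22, 0.716 and 0.519. The other chromosomes below 1 in sgRNA5 were 12, at 0.955, and 22, at 0.789.

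The excess was steepest in the last 2 Mb. At the q ends of the 15 chromosomes, sgRNA4 had 651 peaks from 0 to 2 Mb, 6.18 times its inner mean density, and 464 peaks from 2 to 5 Mb, 2.94 times that mean. sgRNA6 had 1605 and 1427 peaks there, 5.99 and 3.55 times its mean, and sgRNA5 had 230 and 207, 3.31 and 1.99 times its mean. Beyond the tips, at 5 to 10 Mb from the q end, the 3 lists were still at 1.77, 2.09 and 1.62 times the mean for sgRNA4, sgRNA6 and sgRNA5. The fall towards the inner chromosome was not even: at 8 to 9 Mb from the q end the ratio rose again to 2.35, 2.80 and 2.22. Replicate 2 of sgRNA1, sgRNA2 and sgRNA3 stood at 4.13, 3.22 and 3.70 times their own means in the last 2 Mb of the q ends.

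At the p ends of 11 chromosomes the density was near the inner mean over the 5 Mb beyond the tips. sgRNA4 stood at 3.61 times its mean from 0 to 2 Mb, 2.04 times from 2 to 5 Mb and 0.963 times from 5 to 10 Mb. sgRNA6 went from 3.84 to 1.91 and 0.978, and sgRNA5 from 2.08 to 1.48 and 0.769. Within the last of these zones the density was uneven, and at 6 to 7 Mb it was still 1.45 times the mean for sgRNA4 and 1.51 times for sgRNA6. Around the 5 Mb limit, the 0.5 Mb just inside and just outside it at the p ends held 59 and 60 peaks for sgRNA6, 28 and 26 for sgRNA4, and 11 and 12 for sgRNA5. At the q ends the same windows held 241 and 113 peaks for sgRNA6, 88 and 46 for sgRNA4, and 37 and 20 for sgRNA5.

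**Figure D2:**
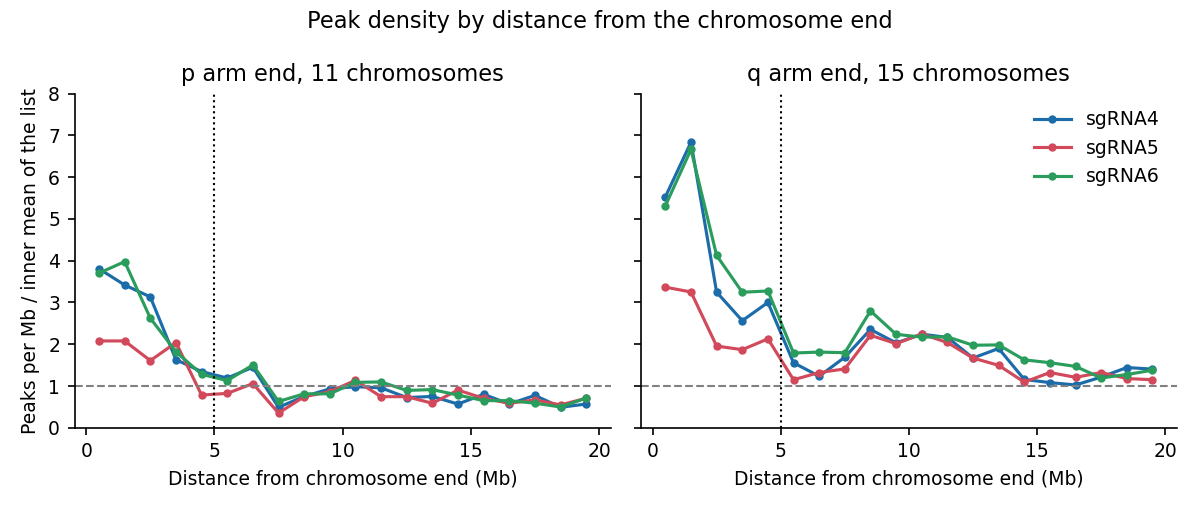
Peak density in steps of 1 Mb from the p end of 11 chromosomes and the q end of 15, divided by the inner mean of the same list (dashed line at 1), for the 3 long lists; the dotted line is the 5 Mb limit. The q ends reach 6.84 times the mean for sgRNA4 and 6.66 for sgRNA6 in the second Mb, and sgRNA5 stays at or below 3.37.

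The q tips held more peaks than the p tips in all 9 lists over the 11 chromosomes that had both. sgRNA6 had 2235 peaks in q tips and 1318 in p tips, a ratio of 1.70. sgRNA4 had 825 and 515, a ratio of 1.60, and sgRNA5 had 308 and 219, a ratio of 1.41. Replicate 2 gave 41 and 30 peaks for sgRNA1, 23 and 10 for sgRNA2, and 12 and 8 for sgRNA3; replicate 1 gave 2 and 0, 3 and 1, and 4 and 1. The mean log2 ratio was 0.93 ± 0.34 (SD, n = 6), or 1.90-fold, positive in 6 of 6 guides. The two-sided exact sign-flip permutation test gave p = 0.0313 and an adjusted p of 0.0781. A q tip was counted back from the last peak of its chromosome, whereas a p tip was counted from the first base of the build, so a p tip can include sequence in which no peak can be called; the part of this in the ratio was not tested. The q tip was the richer of the 2 on 8 of 11 chromosomes in each of sgRNA4, sgRNA5 and sgRNA6. Chromosomes 11 and 16 went the other way in all 3 lists: the p and q tips of chromosome 11 held 231 and 45 peaks of sgRNA6, 90 and 14 of sgRNA4, and 29 and 12 of sgRNA5.

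Tips differed widely in their number of peaks, and the 3 long lists placed them in much the same order. With each list scaled to its own mean over the 26 tips and averaged over guides, the 5 richest were 16q, 5q, 8q, 16p and 14q. The 16q tip held 304 peaks of sgRNA6, 104 of sgRNA4 and 52 of sgRNA5. The 16p tip held 374, 185 and 75, or 74.8, 37.0 and 15 per Mb, the most of any tip in each of the 3 lists. The 8q tip held 348, 165 and 36, the 5q tip 209, 83 and 47, and the 14q tip 228, 82 and 44. The order at the top rests in part on the shortest lists, since 2 of the 4 tip peaks of sgRNA2 replicate 1 lay in 16q. Without the 3 replicate 1 lists, the order was 16p, 8q, 5q, 16q and 21q, at 2.95, 2.76, 1.99, 1.91 and 1.78 times the mean tip.

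The 5 poorest tips were 3p, 9p, 11q, 8p and 2p. The 3p tip held 12 peaks of sgRNA6, 3 of sgRNA4 and 1 of sgRNA5. The 9p tip held 15, 12 and 5, while the 9q tip of the same chromosome held 370, 139 and 34. The 11q tip held 45, 14 and 12, the 8p tip 34, 6 and 4, and the 2p tip 54, 20 and 12. Without the 3 replicate 1 lists, 5p took the place of 2p among them, at 0.413 and 0.461 times the mean tip. The 9p and 11q tips had no peak in any of the 6 lists of sgRNA1, sgRNA2 and sgRNA3. All 26 tips held a peak of sgRNA4, sgRNA5 and sgRNA6, with a median of 52, 20.5 and 165 peaks per tip. Replicate 2 of sgRNA1, sgRNA2 and sgRNA3 reached 21, 18 and 13 tips, and replicate 1 reached 3, 3 and 5.

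Over the 26 tips, the counts of sgRNA4 and sgRNA6 had a Spearman's rho of 0.976, those of sgRNA4 and sgRNA5 of 0.919, and those of sgRNA5 and sgRNA6 of 0.885. These values describe the lists: the points share the cell line, the genome sequence and, within a list, the library. The guides also differed at single tips. The 8q tip stood at 2.63 times the mean tip for sgRNA4 and 1.43 times for sgRNA5.

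**Figure D3:**
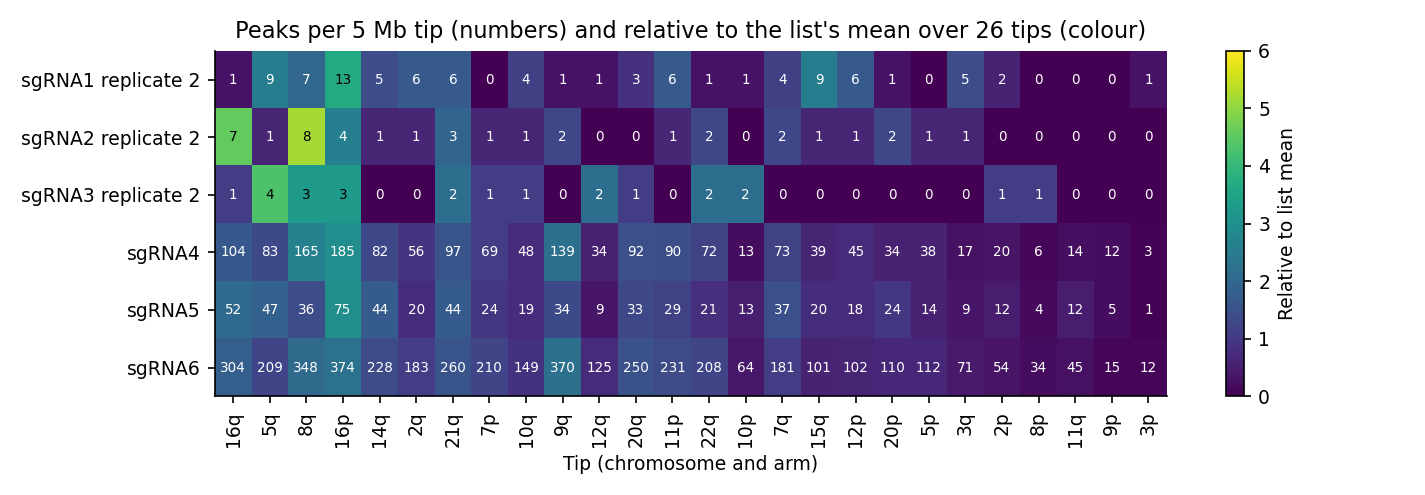
Number of peaks in each of the 26 tips (columns) for the 6 longer lists (rows), coloured on a linear scale by the count relative to the list's own mean over the tips, with tips in the order of the mean over guides. The 16p tip holds the highest count of sgRNA4, sgRNA5 and sgRNA6 (185, 75 and 374), and 3p the lowest (3, 1 and 12).

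Among the guides with replicates, the share of the peaks on the 15 chromosomes that lay in tips was alike in replicate 2: 12.8% for sgRNA1, 12.5% for sgRNA2 and 11.8% for sgRNA3. In replicate 1, with 3, 4 and 5 tip peaks, it was 6.12%, 12.5% and 20.8%. The means were 9.46% ± 4.72 (SD, n = 2), 12.5% ± 0 and 16.3% ± 6.37. An exact permutation test over the 6 lists gave p = 0.8, where the smallest p that 15 arrangements allow is 0.0667. The single libraries of sgRNA4, sgRNA5 and sgRNA6 had 20.5%, 13.6% and 21.2%.

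Of the 12 tip peaks in the replicate 1 lists, 7 overlapped a peak of replicate 2 of the same guide by at least 1 bp. For sgRNA1 it was 3 of 3, where 36.5% of its whole replicate 1 list did so. The first is the peak at chromosome 14, 105521417 to 105522083, which scored 119 in replicate 1 and 406 in replicate 2, where it ranked 4 of 1278. The others are at chromosome 5, 176120525 to 176120880 (98.2 and 93.0), and chromosome 2, 241343075 to 241343824 (64.1 and 92.9). No other guide had a peak on any of these 3. For sgRNA2 it was 1 of 4, where 27.6% of the list did so: chromosome 7, 1215532 to 1216327, with a score of 59.4 in replicate 1 and 53.9 in replicate 2. sgRNA5 and sgRNA6 had a peak there too. For sgRNA3 it was 3 of 5, where 41.5% of the list did so: chromosome 5, 176018751 to 176018978 (112 and 84.1), chromosome 10, 3356532 to 3357094 (67.0 and 88.4), and chromosome 8, 143407132 to 143407683 (54.3 and 106). With 3 to 5 peaks the exact binomial intervals are wide, for example 14.7% to 94.7% for sgRNA3.

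The score, the peak caller's own value as deposited, was compared only as a rank within a list, given as a percentile with 100 for the highest. Guides showed no common direction between tips and inner parts. The median percentile was 45.9 in the tips and 50.8 in the inner parts for sgRNA4, 43.8 and 50.2 for sgRNA5, and 46.3 and 50.8 for sgRNA6. In replicate 2 it was 48.0 and 50.9 for sgRNA1, 41.2 and 52.4 for sgRNA2, whereas sgRNA3 had 55.8 and 45.9. The mean difference over guides was -0.18 ± 7.21 percentile points (SD, n = 6), above 0 in 2 of 6 guides, with an exact permutation p of 0.969 and an adjusted p of 0.969. The 12.6 points of sgRNA1 came from the 3 tip peaks of its replicate 1. Leaving out sgRNA1 replicate 2 turned the difference to 2.41 points, and without sgRNA2 replicate 2 it was 1.40. Without sgRNA1 replicate 1 it was -2.76 points, and without all 3 replicate 1 lists -3.31 points, each above 0 in 1 of 6 guides.

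The top 10% of each long list held tip peaks at different rates. For sgRNA6, 339 of its tip peaks were in the top 10% of the list, which is 7.79% of them (95% exact binomial interval 7.01 to 8.63%), against 10.0% of the whole list. For sgRNA5 it was 38 tip peaks, 5.79% (4.13 to 7.86%), against 10.0%. For sgRNA4 it was 172 tip peaks, 10.6% (9.10 to 12.1%), against 10.0%. These intervals cover counting error only, and peaks of 1 list are not replicates.

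Even so, single tip peaks stood among the highest scores of sgRNA1, sgRNA3, sgRNA4, sgRNA5 and sgRNA6, whereas the highest of sgRNA2 ranked 17 of 570. The peaks named here were picked by their score. Tip peaks made up 12.9% of the whole sgRNA6 list, 11.9% of that of sgRNA4 and 7.86% of that of sgRNA5. The top peak of the sgRNA6 list, at chromosome 14, 103528706 to 103529484, with a score of 3160, is a tip peak without a peak of any other guide. Its next highest tip peaks, both scoring 3100, are at chromosome 15, 101094140 to 101099182, and chromosome 2, 242424226 to 242425607. Both have rank 6 of 33611, a mean over the peaks of the list tied at that score, so the score gives no order among them. sgRNA4 had tip peaks at ranks 2, 3 and 12 of 13660. They lie at chromosome 22, 49661256 to 49662514 (score 2254), chromosome 5, 1229490 to 1230702 (2130), and chromosome 11, 895739 to 897514 (1496). Only the one on chromosome 5 overlapped another guide, a peak of sgRNA6 that scored 63.97 and ranked 25424 of 33611.

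For sgRNA5 the highest tip peaks ranked 3, 4 and 11 of 8346. The highest, at chromosome 10, 3356000 to 3357628, scored 1734. The same place held the peak of rank 36 of sgRNA6, with a score of 1797, and peaks of both sgRNA3 replicates. The others are at chromosome 14, 105742053 to 105744051 (1211), where sgRNA4 had a peak of rank 13470 of 13660, and chromosome 2, 739740 to 740942 (505.5).

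In the replicate 2 lists, sgRNA1 had tip peaks at ranks 4 and 5 of 1278. That at rank 5, at chromosome 15, 102299439 to 102305448, is 6010 bp wide, scored 368 and was absent from replicate 1. Its next tip peak, at chromosome 10, 131909157 to 131910051, scored 132 and was absent from replicate 1 as well. sgRNA3 had tip peaks at ranks 3, 5 and 16 of 382. They are at chromosome 12, 133433040 to 133434237 (218), chromosome 8, 240431 to 241446 (176), and chromosome 22, 49878242 to 49878918 (118). None of the 3 was found in replicate 1. Only that on chromosome 22 overlapped another guide, the peak of rank 77 of sgRNA4, where 81.7% of the whole list overlapped another guide. The highest tip peaks of sgRNA2 ranked lower, at 17, 32 and 71 of 570, and were all absent from replicate 1. All were shared with other guides, as were 94.0% of the whole list. They are at chromosome 8, 146126664 to 146127460 (109), chromosome 22, 51221419 to 51222350 (95.2), and chromosome 8, 141520513 to 141521874 (80.8). Absence from the short replicate 1 lists was the rule. Of 92, 40 and 24 replicate 2 tip peaks of sgRNA1, sgRNA2 and sgRNA3, only 3, 1 and 3 overlapped replicate 1.

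A peak was called shared when it overlapped a peak of any other guide by at least 1 bp. In the long lists, tip peaks were shared less than inner peaks. For sgRNA4, 681 of 1630 tip peaks were shared, 41.8% (39.4 to 44.2%), against 55.1% of inner peaks (53.8 to 56.3%) and 53.1% of the whole list. For sgRNA5 it was 348 of 656, 53.0% (49.1 to 56.9%), against 65.5% of inner peaks and 65.1% of the list. For sgRNA6 it was 832 of 4350, 19.1% (18.0 to 20.3%), against 27.5% of inner peaks and 27.1% of the list. In each of these 3 lists the binomial intervals of tips and inner parts do not overlap. These intervals cover counting error only, and peaks of 1 list are not replicates, so this describes the lists and is no test.

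Among the replicate 2 lists, sgRNA1 shared 74 of 92 tip peaks, 80.4% (70.9 to 88.0%), against 89.6% of inner peaks and 87.6% of the list. sgRNA2 shared 36 of 40, 90% (76.3 to 97.2%), against 92.1% of inner peaks and 94.0% of the list. sgRNA3 shared 14 of 24, 58.3% (36.6 to 77.9%), against 82.1% of inner peaks and 81.7% of the list. In replicate 1 the shared tip peaks were 0 of 3 for sgRNA1, which allows a share of up to 70.8% (25.0% of the list), 3 of 4 for sgRNA2 (74.1% of the list) and 3 of 5 for sgRNA3 (31.7% of the list). sgRNA3 replicate 1 was thus the only list with a higher share in the tips, at 60% against 15.8% of its 19 inner peaks. When an overlap had to cover 50% of both peaks, its share in the tips was 20%, and sgRNA2 replicate 1 then also had a higher share in tips, 75% against 64.3%.

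Over guides the difference in sharing was -7.87 ± 10.1 percentage points (SD, n = 6), below 0 in 5 of 6 guides. The two-sided exact sign-flip permutation test gave p = 0.125 and an adjusted p of 0.156. The exception was sgRNA3, at 10.2 points, through its replicate 1. Without that list the mean was -13.5 points and 0 of 6 guides were above 0, with an exact permutation p of 0.0313 and an adjusted p of 0.0521. Without sgRNA3 replicate 2, which leaves that guide with its 5 tip peaks of replicate 1, it was -2.15 points with an exact permutation p of 0.875. The value also changed with the tip length, but at 2 Mb sgRNA3 replicate 1 kept only 1 tip peak, which no other guide shared. The part of that peak in the change was not tested. With tips of 2 Mb the mean was -13.2 points, 0 of 6 guides were above 0, and the exact permutation p was 0.0313 (adjusted p 0.0521). With tips of 10 Mb it was -3.45 points with an exact permutation p of 0.469. In the higher-scoring 50% of each list it was -13.2 points with an exact permutation p of 0.0625. Overlaps are mutual, so the guides are not fully independent in this test.

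**Figure D4:**
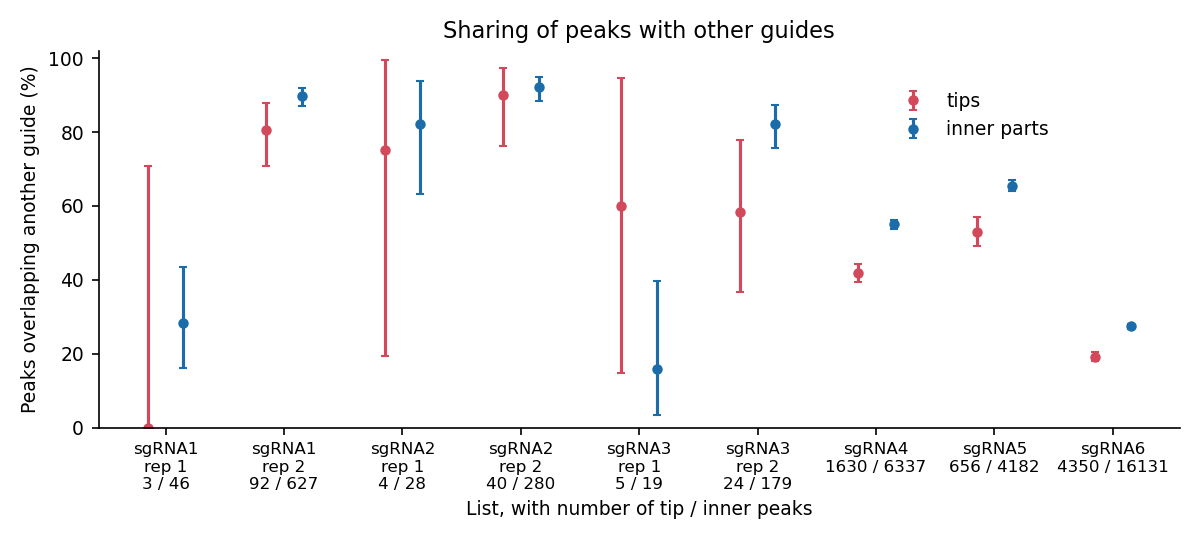
Percent of tip peaks and of inner peaks that overlap a peak of another guide, for each of the 9 lists, with exact binomial 95% intervals and the number of peaks under each label. The tip point is the lower one in 8 of 9 lists, and the intervals of tips and inner parts are apart for sgRNA4, sgRNA5 and sgRNA6. The intervals cover counting error within a list only.

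The lower sharing was not tied to 1 partner. In all 30 ordered pairs of guides, with replicates of a guide joined, the share of tip peaks that met the partner was below the share of inner peaks. Of sgRNA4 peaks, 10.1% in tips and 24.9% in inner parts met sgRNA5, and 38.2% and 49.8% met sgRNA6. Of sgRNA6 peaks, 7.03% and 14.8% met sgRNA5, and 14.7% and 19.9% met sgRNA4. Of sgRNA5 peaks, 25.8% and 38.0% met sgRNA4, and 46.5% and 56.9% met sgRNA6. The pairs reuse the same 6 sets of peaks and are given as a description.

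Sharing did not move steadily with distance from the end. In steps of 1 Mb the shared percent ran from 18.4 to 20.1% for sgRNA6, from 38.8 to 46.0% for sgRNA4 and from 44.0 to 56.4% for sgRNA5. Between single tips it varied more. For sgRNA6 it was 30.6% of 209 peaks in 5q and 28.6% of 374 in 16p, but 9.38% of 64 in 10p and 8.82% of 34 in 8p; these tips were chosen after their values were seen.

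For sgRNA4 and sgRNA6 the gap was widest among high-scoring peaks. In the top 10% of the sgRNA4 list, 74 of 172 tip peaks were shared, 43.0% (35.5 to 50.8%), against 71.8% of 634 inner peaks (68.1 to 75.2%). In the top 10% of the sgRNA6 list it was 116 of 339, 34.2% (29.2 to 39.5%), against 58.2% of inner peaks (55.8 to 60.7%). For sgRNA5 it was 33 of 38, 86.8% (71.9 to 95.6%), against 90.5%. In the lower 50% of the lists the shares were 37.0 and 44.5% for sgRNA4, 40.1 and 53.0% for sgRNA5, and 12.8 and 15.6% for sgRNA6. Whether the gap differs between score classes was not tested. Shared tip peaks still ranked above unshared ones, with median percentiles of 52.7 and 41.7 for sgRNA4, 55.7 and 32.6 for sgRNA5, and 61.8 and 42.4 for sgRNA6.

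**Figure D5:**
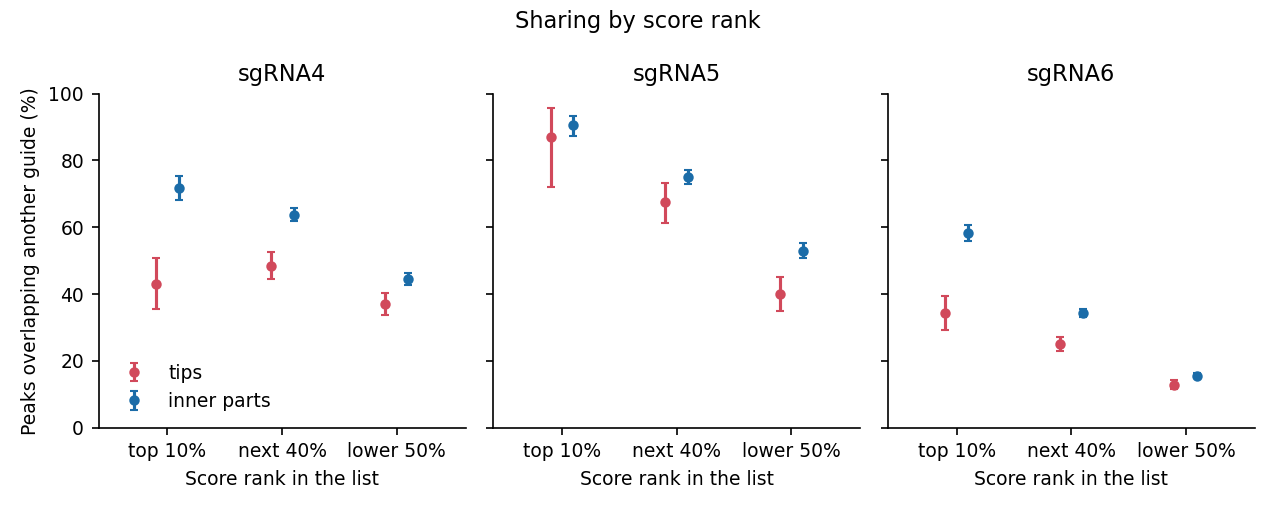
Percent of peaks that overlap another guide, by score class within the list (top 10%, next 40%, lower 50%), in tips and inner parts, with exact binomial 95% intervals. In the top 10%, tips and inner parts stand at 43.0 and 71.8% for sgRNA4 and 34.2 and 58.2% for sgRNA6, and at 86.8 and 90.5% for sgRNA5.

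Joined over all lists, the tip peaks formed 5652 separate regions. Of these, 4809 (85.1%) came from 1 guide, 658 from 2 guides, 154 from 3, 23 from 4 and 8 from 5. No tip region held all 6 guides. Among 20691 inner regions 78.0% came from 1 guide and 10 (0.0483%) held all 6. At so small a share, the absence of such a region among 5652 tip regions says little. Regions with 4 or more guides made up 0.548% of tip regions (31) and 1.96% of inner regions (405). Such a region needs a peak of sgRNA1, sgRNA2 or sgRNA3. Their replicate 2 lists had 12.8%, 12.5% and 11.8% of the peaks on the 15 chromosomes in tips. sgRNA4, sgRNA5 and sgRNA6 had 20.5%, 13.6% and 21.2%. The part of this mix of lists in the lower share was not tested. The largest class was sgRNA6 alone, with 3518 tip regions, followed by 949 of sgRNA4 alone, 449 of sgRNA4 with sgRNA6, and 308 of sgRNA5 alone.

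The 8 tip regions with 5 guides lie on chromosomes 5, 7, 8, 11 and 16. The one with the highest mean rank is at chromosome 8, 146126097 to 146128682, and lacks only sgRNA1. It scored 109 in sgRNA2 replicate 2 (rank 17), 83.5 in sgRNA3 replicate 2 (rank 65), 388 in sgRNA4 (rank 158), 160 in sgRNA5 (rank 325) and 664 in sgRNA6 (rank 369). A pair of places on chromosome 16 belong here: 2272675 to 2274440 in the p tip, with sgRNA1, sgRNA3, sgRNA4, sgRNA5 and sgRNA6, and 85646486 to 85649845 in the q tip, with sgRNA2 in place of sgRNA3. On chromosome 5 they are 180648340 to 180651967, and 179246363 to 179248501, which is the only one of the 8 without sgRNA5. The remaining ones are at chromosome 7, 158622139 to 158623304, chromosome 8, 141520283 to 141522613, and chromosome 11, 808832 to 810328.

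Within the rule for named regions, 2 with 4 guides complete the list, at chromosome 11, 3443295 to 3445061, and chromosome 2, 739714 to 740942. In the latter, sgRNA5 scored 505.5 and sgRNA6 248. Neither these nor the 8 regions with 5 guides held a peak of any replicate 1 list, so their presence in sgRNA1, sgRNA2 and sgRNA3 rests on replicate 2.

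Tip peaks also lay closer together within a list. For sgRNA6, 3143 of 4350 tip peaks (72.3%, 70.9 to 73.6%) had another peak of the same list within 10 kb, against 49.8% of inner peaks and 56.0% of the list. For sgRNA4 it was 776 (47.6%, 45.2 to 50.1%), against 30.9% and 37.4%, and for sgRNA5 158 (24.1%, 20.9 to 27.5%), against 20.2% and 22.2%. The median gap was 4.12 kb in tips and 10.2 kb in inner parts for sgRNA6, 11.3 and 32.9 kb for sgRNA4, and 40.3 and 58.4 kb for sgRNA5. The gaps move with the densities above and are no separate finding.

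In the 6 longer lists the median widths of tip and inner peaks lay close together. In tips the median was 773 bp against 733 bp for sgRNA4, 680 against 652 bp for sgRNA6 and 615 against 618 bp for sgRNA5. In replicate 2 it was 723.5 against 693 bp for sgRNA1, 868.5 against 762.5 bp for sgRNA2, and 699 against 640 bp for sgRNA3. The few tip peaks of replicate 1 gave 667 against 446.5 bp for sgRNA1, 518 against 619.5 bp for sgRNA2 and 459 against 440.0 bp for sgRNA3. The mean log2 ratio over guides was 0.08 ± 0.13 (SD, n = 6), or 1.06-fold, above 0 in 4 of 6 guides, with an exact permutation p of 0.125 and an adjusted p of 0.156. Without sgRNA1 replicate 1 the mean was 0.04, and without sgRNA2 replicate 2 it was 0.05.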

How the data were processed

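Peak lists of 9 libraries were used; the other 3 of 12 described samples were not analysed here. The submitters' processing notes name Bowtie, Bowtie2, MACS and hg19, without versions; the settings used with them are not stated there. The score of each peak is the authors' own value, deposited per library; none was below 50, and scores were ranked only within a list. The lists hold no read counts, so depth is unknown and may set the number of peaks. The labels do not say that replicates are separate cultures, so the spread between replicates may be technical. The permutation test of tip share among sgRNA1, sgRNA2 and sgRNA3 rests on that spread. The sign-flip tests measure the spread between guides.

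Coordinates are hg19, counted from 1. No genome of that build was used here, so no sequence or gene is given. The members and lists were chosen with earlier results of these data known. The 26 tips span 130 Mb and the inner parts 1804.75 Mb. Guides were the units of two-sided exact sign-flip permutation tests, with p-values adjusted over 5 tests. With 6 guides p cannot fall below 0.0313, so an adjusted p under 0.05 needs at least 4 of the 5 tests at that value. Named regions are the 3 highest tip peaks per guide (replicate 2 where there are 2), the 10 tip regions with the most guides, the 5 richest and 5 poorest tips, and tip peaks found in both replicates. Shares carry exact binomial (Clopper-Pearson) 95% intervals. Alternatives changed the tip length, overlap rule, score filter, chromosomes and libraries. Calculations used Python 3.11.15, numpy 2.4.6, pandas 2.3.3 and scipy 1.17.1, tested on simulated lists, and matplotlib 3.10.9.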

Additional observations from a re-analysis of the deposited data

Results flagged for a closer look

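Among the guides, the width of tip peaks relative to inner peaks went in both directions. sgRNA5 had slightly narrower tip peaks (median 615 against 618 bp) in its single library, whereas every library of sgRNA1, sgRNA3, sgRNA4 and sgRNA6 had wider ones. The 2 replicates of sgRNA2 went opposite ways, with log2 ratios of -0.26 and 0.19. The log2 ratio of tip to inner width differed by 0.33 between sgRNA1 and sgRNA5, by 0.10 between sgRNA3 and sgRNA5, by 0.084 between sgRNA4 and sgRNA5, and by -0.068 between sgRNA5 and sgRNA6. sgRNA4, sgRNA5 and sgRNA6 have 1 library each, and these differences were not tested. The value of sgRNA1 rests on its replicate 1, whose 3 tip peaks gave a log2 ratio of 0.58, against 0.06 in replicate 2.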

How the results depend on the processing

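Of 101 alternative values, 87 were classed as the same, 6 moved and 8 changed sign. For the 5 adjusted tests, the same meant the same sign and the same side of an adjusted p of 0.05. No adjusted p was below 0.05, so only the sign set these classes and values of different size count as the same. For the tip share test the same meant the same side of 0.05, and for shared percents a value within the binomial interval. The p of the tip share test cannot fall below 0.0667, or 0.167 with the replicate block. Its 12 alternatives could thus only be classed as the same. All 8 sign changes concern score rank, whose difference of -0.18 percentile points became 3.74 with tips of 2 Mb, 1.13 with tips of 10 Mb, 1.13 in the higher-scoring 50% of each list, 0.20 with peaks within 1000 bp merged and 1.66 on the 11 chromosomes with both tips. It ranged from -2.76 to 2.41 when 1 library was left out. Density and q against p kept their direction in 6 of 6 guides throughout, with mean log2 ratios of 0.85 to 1.72 and 0.68 to 1.70. Sharing ranged from -13.5 to -2.15 points (exact permutation p 0.0313 to 0.875), with -13.2 for tips of 2 Mb and -3.45 for tips of 10 Mb. Among the alternatives chosen after seeing the data, sharing was -10.2 with replicates pooled and -11.5 without the 3 replicate 1 lists, each with 0 of 6 guides above 0, and density was 1.10 over all 30 tips. Score rank was -2.43 points with replicates pooled and -3.31 without the 3 replicate 1 lists, each with 1 of 6 guides above 0. For sgRNA1, sgRNA2 and sgRNA3 the correlations of deviations between guides were -0.11, 0.04 and 0.02. List length still went with replicate number. These guides had 96, 58 and 41 peaks in replicate 1, and 1278, 570 and 382 in replicate 2. With the replicate block the range of their mean tip shares stayed 6.87 points, with an exact permutation p of 1. The replicate 1 lists, with 3 to 5 tip peaks, limit what can be compared between replicates.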
